A study of Mus musculus with 8 samples.

Results

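The 44 genes described here encode the glutathione transferases of mouse liver, the enzymes that make and recycle glutathione, and the peroxide and superoxide enzymes. They also encode enzymes of the pentose phosphate pathway, and NRF2 and KEAP1, the pair of proteins that set the antioxidant response. The genes were listed by name as members of these pathways, with earlier results of these data known. All 44 were found by symbol among the 49585 genes of the count table. RNA was sequenced from the livers of 8 male mice of 3 genotypes that had eaten HFCD, a choline-deficient diet rich in fat, for 3 months from the age of 21 days. The 3 LP+/+ livers carried no Cre (Alb-Cre0) and kept a functional Trp53 on both alleles, and their second allele was an unrecombined Trp53fl in replicates 1 and 2 and an unrecombined Trp53wm-R245W in replicate 3. The 2 LPfl/+ livers (Alb-CreTG, Trp53fl/+) had lost 1 Trp53 allele in the cells where Cre acts. The 3 LP245/+ livers (Alb-CreTG, Trp53wm-R245W/+) had switched 1 allele to the p53R245W mutant. Alb-Cre acts in hepatocytes and cholangiocytes, so that Kupffer cells, stellate cells, endothelial cells and blood cells of these livers kept their wild-type alleles. The labels call the LP+/+ livers Cre-negative, while the study describes the same group in one place as Alb-Cre carriers. All 3 genotypes ate HFCD, and no liver on another diet was compared.

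NRF2, encoded by Nfe2l2, is a transcription factor that KEAP1 holds at a low level by directing it to degradation. Oxidants and electrophiles modify KEAP1, NRF2 then accumulates, and together with small MAF proteins it binds antioxidant response elements near genes of detoxification and glutathione metabolism. Glutathione transferases join glutathione to electrophiles, and hepatocytes are among the cells richest in them. Several of these enzymes in mouse liver also respond to xenobiotic receptors and differ between the sexes.

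The livers had between 26304526 and 31370714 counts, and the 44 genes held between 1.43% and 1.64% of them. Cdkn1a, a direct p53 target used to check the genotypes, had 195, 144 and 195 counts in LP+/+ livers, 74 and 99 in LPfl/+ livers, and 14, 25 and 27 in LP245/+ livers. Trp53 itself had between 215 and 269 counts in LP+/+ livers, 125 and 176 in LPfl/+ livers, and between 190 and 306 in LP245/+ livers. The sample descriptions end in a number that they do not explain, read here as a library number. These numbers form 2 series, called the library series below. The first, with the lower numbers, holds the 3 LP245/+ livers and LP+/+ replicates 2 and 3, and the second, with the higher numbers, holds LP+/+ replicate 1 and both LPfl/+ livers. LP+/+ replicate 1 stood apart from the other LP+/+ livers for these genes: 29 of the 44 were lower in it than in both others, against 36.2% of all genes tested, and 8 were higher than in both, against 38.6%. The median over the 44 genes of its log2 ratio to the mean of the other two was -0.27, compared with 0.00 over all genes. The counts over the 44 genes are therefore also given without it and within a series, and for many single genes the log2 ratio within the series is given beside the difference over all livers. Nothing in the sources used here says what the numbers stand for or when the libraries of a series were made. Series and genotype cannot be told apart for LP245/+ against LPfl/+, which share no series.

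Promoters, from 250 bases before to 50 after the start of a transcript, were read from RefSeq (GRCm38.p6). Of the 44 genes, 38 matched, with 51 promoters, and Gstt2, Prdx6, Gsta4, Gsr, Hmox1 and Gclc did not. The core of the antioxidant response element, written TGACNNNGC and searched on both strands, was in 12 of the 51 (23.5%), against 12.4% of the 32851 promoters searched. The search left out a chromosome that holds none of the 44 genes. A match is a description of the letters and not of binding. The windows of 6 matches are printed below 5′ to 3′ on the strand of the gene, because they belong to abundant or much-studied members, with the match in capitals, which reads GCNNNGTCA where it lies on the opposite strand.
Nfe2l2 (chr2:75704870-75704913, minus strand, 240 bases before the start): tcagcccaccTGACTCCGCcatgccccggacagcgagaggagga
Txnrd1 (chr10:82859088-82859147, plus strand, 92 bases before a second start): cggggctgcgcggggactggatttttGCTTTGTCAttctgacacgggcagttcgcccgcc
Gclm (chr3:122245397-122245456, plus strand, 134 bases before the start): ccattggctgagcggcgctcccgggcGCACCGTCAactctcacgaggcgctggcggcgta
Gsta3 (chr1:21240438-21240497, plus strand, 121 bases before the start): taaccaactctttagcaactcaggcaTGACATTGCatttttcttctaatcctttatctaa
Mgst1 (chr6:138140445-138140504, plus strand, 56 bases before the start): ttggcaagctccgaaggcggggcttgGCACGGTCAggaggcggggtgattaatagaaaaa
Prdx1 (chr4:116685440-116685499, plus strand, 133 bases before the start): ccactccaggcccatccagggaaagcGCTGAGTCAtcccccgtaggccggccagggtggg

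The other 6 matches were in promoters of Srxn1, G6pdx, Pgd, Gstm5, Gstm7 and Sod1. A related word, TGAGTCAGC, chosen after the promoters had been read, was in 0.414% of all promoters searched and in those of 3 of the 44 genes. These windows are printed because Gstp1 and Gstp2, the pi-class genes for which LP+/+ replicate 1 lay far above its group, hold the word, in capitals, in nearly the same surroundings.
Gstp1 (chr19:4037953-4038012, minus strand, 74 bases before the start): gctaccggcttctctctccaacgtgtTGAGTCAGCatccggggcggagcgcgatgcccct
Gstp2 (chr19:4042277-4042336, minus strand, 89 bases before the start): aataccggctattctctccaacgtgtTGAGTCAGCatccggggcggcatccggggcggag
Srxn1 (chr2:152105453-152105512, plus strand, 45 bases before the start): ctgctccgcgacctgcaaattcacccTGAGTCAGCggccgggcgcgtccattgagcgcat

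Promoters were aligned at the first listed start of each gene only. Those of Gstp1 and Gstp2 were 76.4% identical and those of Gsta1 and Gsta2 74.6%. For the mu-class pairs with Gstm1 the identity was between 44.8% and 48.1%. Gstm1, Gstm4, Gstm6 and Gstm7 have further starts, which were not aligned, so these values do not give the closest match of the mu-class promoters. Reads of near-identical genes can be shared or lost in counting. Of the 76-base stretches of the Gsta1 transcripts, 84.5% also occur in another gene, mostly Gm3776, and the share was 50% for Gstp2, 36.2% for Gsta2, 29.6% for Gpx4, 29.0% for Gstp1 and 21.3% for Gstm3. The counts of these genes are uncertain to that extent, and 26 of the 44 genes shared under 1% of their stretches.

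Levels were compared between genes as FPKM, fragments scaled to exon length and library depth, averaged over the 8 livers. The highest levels belonged to Gpx1 (1440 FPKM), the main cytosolic glutathione peroxidase, to Cat (1350 FPKM), the catalase of peroxisomes, and to Mgst1 (1130 FPKM), a membrane-bound glutathione transferase. Their ranges over livers, from 1190 to 1810, from 1220 to 1480 and from 1020 to 1370 FPKM, overlapped. The most abundant soluble glutathione transferases were Gsta3 (411 FPKM), Gstm1 (396 FPKM) and Gstp1 (351 FPKM), again with overlapping ranges, followed by Gstt1 (151 FPKM) and Gstk1 (78.2 FPKM). Between them and around them lay Prdx1 (226 FPKM), Ephx1 (143 FPKM), Sod1 (134 FPKM), Gclc (131 FPKM), Prdx6 (107 FPKM) and Txn1 (78.5 FPKM). A middle range from Gsta4 at 50 FPKM through Gpx4, Taldo1, Gsto1, Gclm, Gstm6, Gsr, Gstm7, Gstm2, Txnrd1, Tkt, Sod2, Nfe2l2, Srxn1, Mgst3, Gstm4, Hmox1, Gstm3, Gsta2 and Gstt2 ended at 10.3 FPKM. Below it were Gss (7.90 FPKM), Keap1 (5.46 FPKM), Gstt3 (5.14 FPKM), Gstm5 (4.96 FPKM), Pgd (3.76 FPKM), Nqo1 (3.48 FPKM), G6pdx (2.03 FPKM) and Gpx3 (1.30 FPKM). Gstp2 (0.541 FPKM) and Gsta1 (0.530 FPKM) were the least abundant. Nqo1, a quinone reductase often used as a readout of NRF2, was thus a low-abundance transcript in these livers, while catalytic Gclc was 131 and its partner Gclm 31.8 FPKM.

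**Figure D1:**
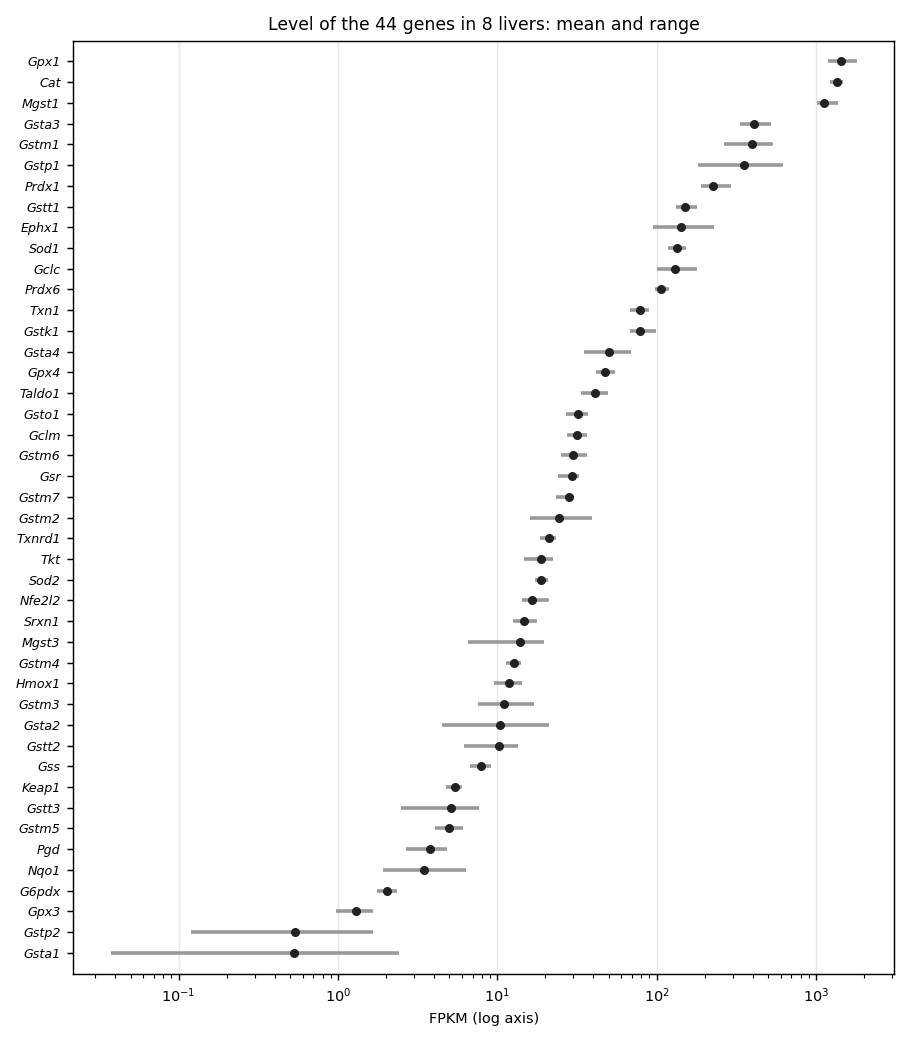
Level of each of the 44 genes in FPKM on a log axis. Points are means over the 8 livers and grey bars run from the lowest to the highest liver. Gpx1, Cat and Mgst1 lie above 1000 FPKM, Gstp2 and Gsta1 below 1 FPKM.

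The comparisons ask how the loss of a wild-type Trp53 allele, or its replacement by the mutant, goes with the level of these genes. All 44 passed the filter on low counts. By quasi-likelihood in edgeR, with p-values adjusted over 16496 genes (Benjamini-Hochberg), and a cutoff of a log2 fold change of 1 or more in either direction at an adjusted p of 0.05 or less, 0 of the 44 genes passed in each of the 3 comparisons. The share of all genes past it was 0.00606% in LP245/+ compared with LP+/+ and 0% in each of the other two. DESeq2 also found 0 of the 44 past the cutoff. In the unadjusted test, 6 of the 44 were lower in LP245/+ than in LP+/+ with a p below 0.05 and 0 were higher, where 2.38% and 3.55% of all genes were. In LPfl/+ compared with LP+/+, 11 were lower and 0 higher, where 2.67% and 4.22% of all genes were. In LP245/+ compared with LPfl/+, 3 were higher and 0 lower, where 4.07% and 4.44% of all genes were. The first 2 comparisons share the LP+/+ livers. In bulk liver, fewer cells of a type and less RNA per cell cannot be told apart.

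The sign of the estimates was uneven. In LP245/+ compared with LP+/+, 36 of the 44 had a log2 fold change below 0, with a median of -0.11, where the median of all genes was 0.00. In LPfl/+ compared with LP+/+, 38 were below 0 and the median was -0.19, with a median of -0.001 over all genes. In LP245/+ compared with LPfl/+, 29 were above 0 and the median was 0.07. The median member level of a liver varied by 0.112 (pooled SD, log2) between livers of 1 genotype. That value describes single livers and not the error of a difference between genotype means, so it cannot serve as a test of these medians. The livers of the 2 genotypes did not overlap for 3 of the 44 genes lower and 1 higher in LP245/+ than in LP+/+ (5.79% and 6.03% of all genes), for 14 lower and 1 higher in LPfl/+ than in LP+/+ (13.2% and 11.9%), and for 9 higher and 4 lower in LP245/+ than in LPfl/+ (12.1% and 13.3%).

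**Figure D2:**
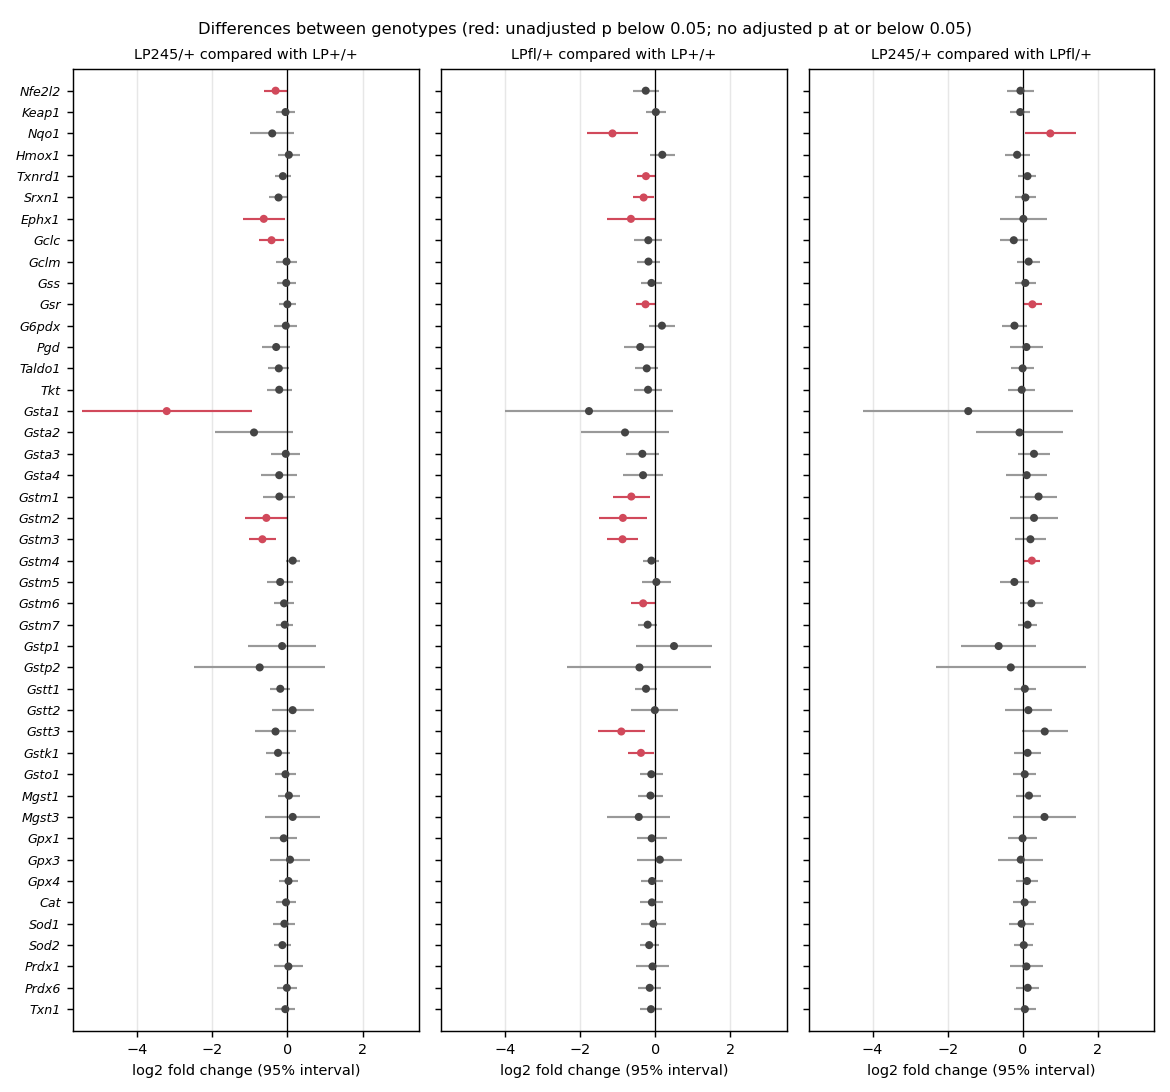
Log2 fold change of each of the 44 genes in the 3 comparisons, in blocks by role from top to bottom. Points are estimates and bars 95% intervals from edgeR, red where the unadjusted p is below 0.05. Estimates lie left of 0 for 36 genes in the first panel and 38 in the second, and right of 0 for 29 in the third.

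LP+/+ replicate 1 and the library series bear on these counts. Within the first series, LP245/+ livers had a lower mean than LP+/+ replicates 2 and 3 for 40 of the 44 genes, and the livers did not overlap for 19 lower and 2 higher genes, against 12% and 11.6% of all genes. In the second series, LPfl/+ livers had a lower mean than LP+/+ replicate 1 for 25 genes and a higher one for 19, and they did not overlap for 21 lower and 14 higher genes, against 34.7% and 33.4% of all genes, with a single control liver. Without LP+/+ replicate 1, the genes with an unadjusted p below 0.05 numbered 14 in LP245/+ compared with LP+/+ (13 lower). Of all genes, 2.53% were lower and 4.17% higher. In LPfl/+ compared with LP+/+ they numbered 17 (16 lower), where 4.79% of all genes were lower and 6.88% higher. In that comparison 59 of all 16311 genes tested passed the cutoff, against 0 with all livers, and 3 of the 44 did. These 3 were Gstp1, higher by 1.35 on the log2 scale (adjusted p = 0.00397), Gstm2, lower (-1.13, adjusted p = 0.0233), and Nqo1, lower (-1.38, adjusted p = 0.0414), all by edgeR. That contrast sets LPfl/+ livers of the second series against LP+/+ livers of the first only. With the series as a covariate, 4 genes were lower and 4 higher in LPfl/+ than in LP+/+ with an unadjusted p below 0.05 (2.42% and 2.95% of all genes), in place of 11 and 0. In that fit 25 of the 44 genes were below 0, the median was -0.05, and 19 genes had the opposite sign to the fit without the covariate. Its estimate for LPfl/+ rests on LP+/+ replicate 1 as the only control liver. Genotype and the state of that liver cannot be told apart in it. For LP245/+ compared with LP+/+, the covariate and leaving out LP+/+ replicate 1 are in effect the same contrast, against LP+/+ replicates 2 and 3. They are therefore not separate checks. Each turned the sign of the same 9 genes, among them Gstp1 (from -0.14 to 0.70), Gstp2 (from -0.74 to 0.95) and Mgst3 (from 0.14 to -0.20). Leaving out other livers moved the count of 6 in LP245/+ to 2 without LP+/+ replicate 2 or LP245/+ replicate 1. The count of 11 in LPfl/+ became 4 without LP+/+ replicate 2 or LPfl/+ replicate 2, and 7 without LP+/+ replicate 3 or LPfl/+ replicate 1.

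**Figure D3:**
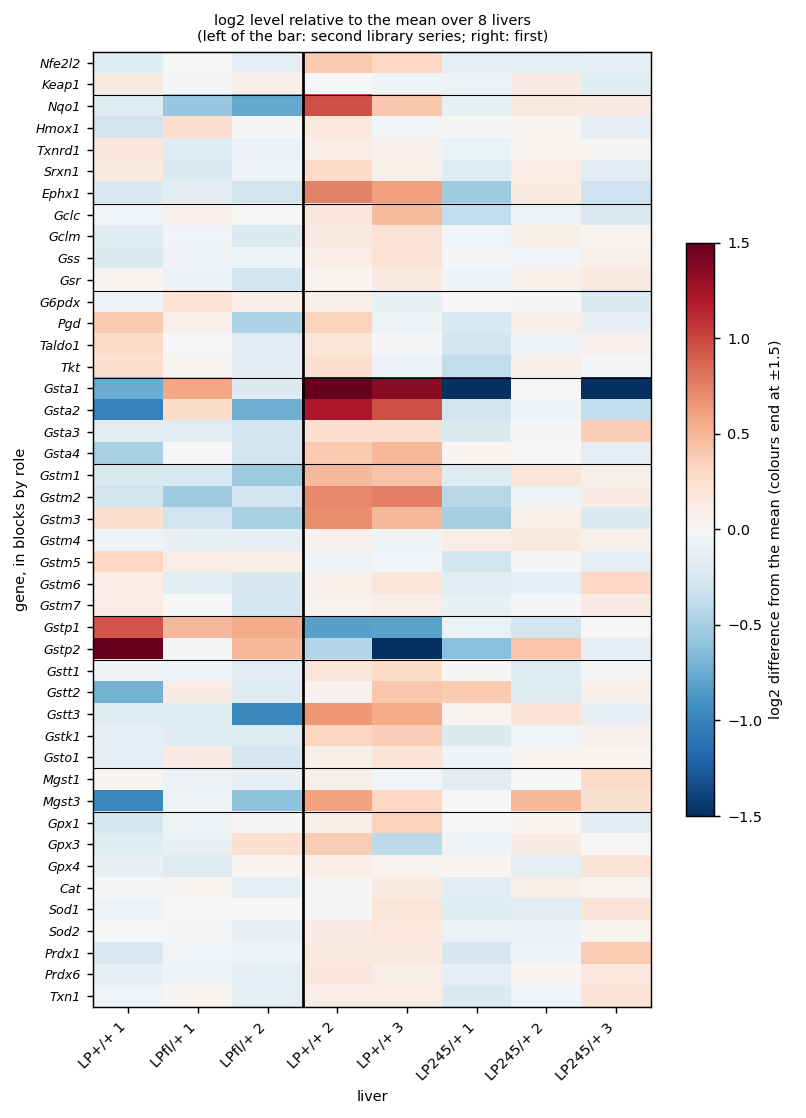
Log2 level of each gene in each liver, relative to the gene's mean over the 8 livers, with livers ordered by library series and genes in blocks by role. LP+/+ replicates 2 and 3 are mostly red, with Gstp1 and Gstp2 blue, and LP+/+ replicate 1, left of the bar, shows the opposite for Gstp1, Gstp2, Gsta1 and Gsta2.

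The regulators were Nfe2l2 and Keap1. Nfe2l2 (chromosome 2, from 75675513 to 75704641 in GRCm38) had normalized read counts, counts divided by the DESeq2 size factor of the liver, of 1540, 2290 and 2160 in LP+/+ livers, 1750 and 1580 in LPfl/+ livers, and 1590, 1580 and 1610 in LP245/+ livers. The LP245/+ livers were almost identical to each other and to LP+/+ replicate 1, and below LP+/+ replicates 2 and 3. edgeR estimated Nfe2l2 at a log2 fold change of -0.32 in LP245/+ (SE 0.14, adjusted p = 0.831) and -0.25 in LPfl/+ (SE 0.16, adjusted p = 0.782) compared with LP+/+. In LP245/+ compared with LPfl/+ it was -0.06 (SE 0.16, adjusted p = 0.954). Within the series, the log2 ratio of Nfe2l2 was -0.48 in LP245/+ and 0.12 in LPfl/+. Keap1 ranged from 638 to 798 normalized counts over the 8 livers, with log2 fold changes of -0.05 in LP245/+ (SE 0.11, adjusted p = 0.959) and 0.02 in LPfl/+ (SE 0.12, adjusted p = 0.983), and 95% intervals from -0.29 to 0.19 and from -0.25 to 0.29. Within the series the log2 ratio of Keap1 was -0.0035 in LP245/+ and -0.11 in LPfl/+. The difference of Keap1 between LP245/+ and LPfl/+ was -0.07 (SE 0.12, adjusted p = 0.923).

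Among 5 enzymes known as NRF2 targets, Nqo1 had the log2 fold change farthest from 0 in LPfl/+. Its normalized counts were 126, 282 and 190 in LP+/+ livers, 96.3 and 83.8 in LPfl/+ livers, and 132, 159 and 157 in LP245/+ livers. Both LPfl/+ livers were below all others, and the LP245/+ livers lay within the LP+/+ range. The log2 fold change of Nqo1 was -1.14 in LPfl/+ compared with LP+/+ (SE 0.30, adjusted p = 0.697), -0.41 in LP245/+ compared with LP+/+ (SE 0.26, adjusted p = 0.846) and 0.73 in LP245/+ compared with LPfl/+ (SE 0.30, adjusted p = 0.551). Against the single LP+/+ liver of its own series, LPfl/+ was lower by a log2 ratio of -0.48. Hmox1, heme oxygenase, had 472, 651 and 567 normalized counts in LP+/+ livers, 701 and 577 in LPfl/+ livers, and 591, 597 and 532 in LP245/+ livers, and all 3 groups overlapped. Its log2 fold changes were 0.19 in LPfl/+ (SE 0.15, adjusted p = 0.815), 0.04 in LP245/+ (SE 0.13, adjusted p = 0.977), with an interval from -0.26 to 0.33 for the latter, and -0.15 in LP245/+ compared with LPfl/+ (SE 0.15, adjusted p = 0.819). Within the series the ratios of Hmox1 were -0.09 in LP245/+ and 0.44 in LPfl/+.

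Ephx1, the microsomal epoxide hydrolase, had 6440, 12700 and 11600 normalized counts in LP+/+ livers, 6770 and 6250 in LPfl/+ livers, and 5220, 8390 and 6080 in LP245/+ livers. LP+/+ replicates 2 and 3 stood above all other livers, while LP+/+ replicate 1 lay among the livers of the other genotypes. Ephx1 had log2 fold changes of -0.63 in LP245/+ (SE 0.25, adjusted p = 0.806) and -0.64 in LPfl/+ (SE 0.28, adjusted p = 0.721). Within the series it was -0.89 in LP245/+ but 0.02 in LPfl/+. Txnrd1, the cytosolic thioredoxin reductase, and Srxn1, sulfiredoxin, had no low value in LP+/+ replicate 1. Txnrd1 had 4740, 4570 and 4420 normalized counts in LP+/+ livers, 3710 and 3970 in LPfl/+ livers, and 3940, 4310 and 4270 in LP245/+ livers, and all 5 livers of the other genotypes were below all LP+/+ livers. Srxn1 had 1280, 1420 and 1220 in LP+/+ livers, 1000 and 1100 in LPfl/+ livers, and 1010, 1250 and 1030 in LP245/+ livers. In LPfl/+ the log2 fold change was -0.25 for Txnrd1 (SE 0.11, adjusted p = 0.721) and -0.31 for Srxn1 (SE 0.12, adjusted p = 0.704), and the ratios within the series, -0.30 and -0.29, were nearly the same.

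**Figure D4:**
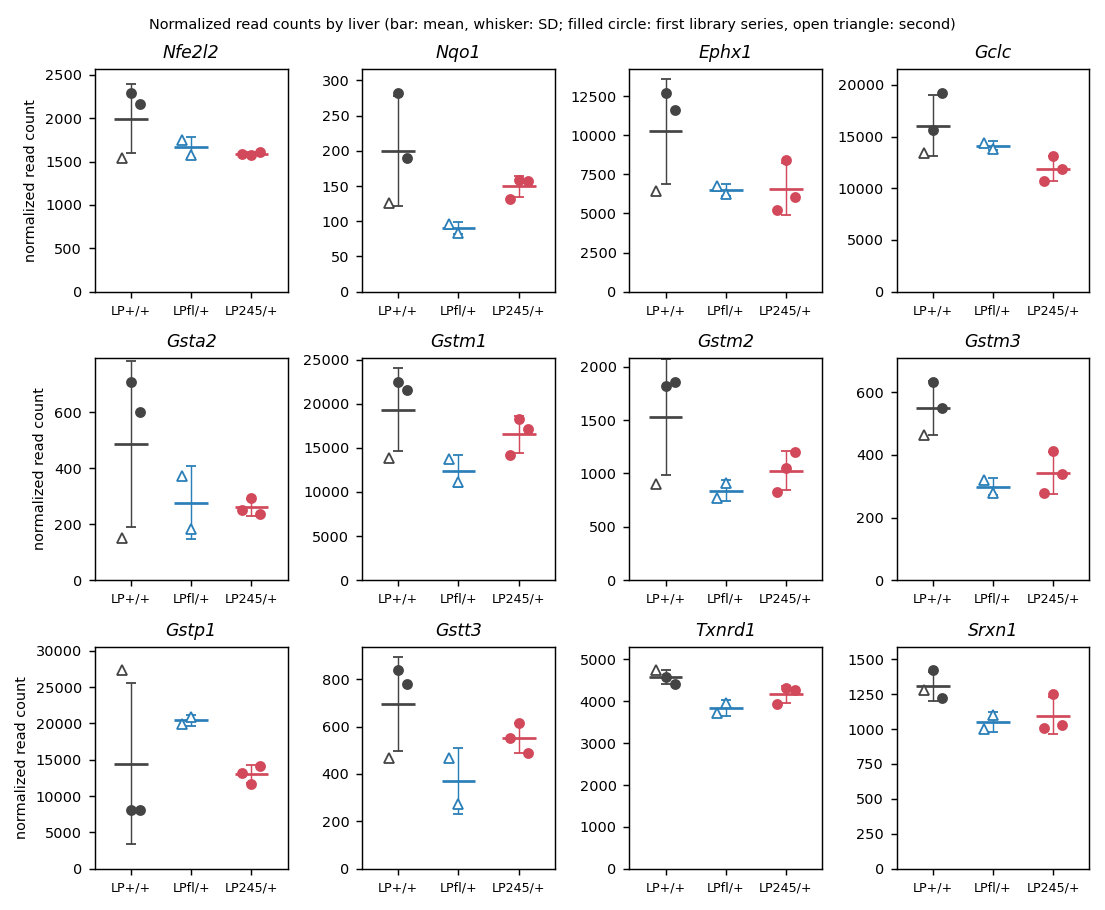
Normalized read counts of 12 of the genes in each liver by genotype, on axes from 0. Filled circles are the first library series, open triangles the second, long bars means and whiskers SD. In LP+/+ the open triangle lies below the circles for Nfe2l2, Nqo1, Ephx1, Gclc, Gsta2, Gstm1, Gstm2, Gstm3 and Gstt3, above them for Gstp1 and Txnrd1, and between them for Srxn1.

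Of the genes that make and recycle glutathione, Gclc encodes the catalytic subunit of the rate-limiting enzyme. It had 13400, 15600 and 19200 normalized counts in LP+/+ livers, 14400 and 13800 in LPfl/+ livers, and 10700, 13100 and 11900 in LP245/+ livers. All LP245/+ livers were below all livers of the other 2 genotypes. The log2 fold change of Gclc was -0.42 in LP245/+ compared with LP+/+ (SE 0.15, adjusted p = 0.795) and -0.24 compared with LPfl/+ (SE 0.16, adjusted p = 0.735), and it was -0.18 in LPfl/+ compared with LP+/+ (SE 0.17, adjusted p = 0.842). Within the first series the log2 ratio of LP245/+ was -0.55. Gclm, its modifier subunit, did not go with it: it had means of 5910 ± 814 (SD) in LP+/+ livers, 5190 ± 418 in LPfl/+ livers, and 5760 ± 255 in LP245/+. Gss, glutathione synthetase, ranged from 1130 to 1530 over the livers, with both extremes in LP+/+.

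Gsr, glutathione reductase, had 2360, 2340 and 2550 normalized counts in LP+/+ livers, 2160 and 1860 in LPfl/+ livers, and 2220, 2420 and 2540 in LP245/+ livers. The LPfl/+ livers were below all others. Gsr had log2 fold changes of -0.26 in LPfl/+ compared with LP+/+ (SE 0.11, adjusted p = 0.721) and 0.25 in LP245/+ compared with LPfl/+ (SE 0.11, adjusted p = 0.583), and -0.23 within the second series. The enzymes of the pentose phosphate pathway, a source of NADPH for Gsr, had 0 members with an unadjusted p below 0.05 by edgeR in any comparison. Their log2 fold changes ran from -0.30 to -0.04 in LP245/+ and from -0.40 to 0.18 in LPfl/+, each compared with LP+/+. G6pdx, the entry enzyme, was the exception in LPfl/+, with 204 and 189 normalized counts against 171, 188 and 164 in LP+/+ and 176, 174 and 154 in LP245/+ livers. Pgd (488 to 890), Taldo1 (2050 to 3060) and Tkt (3030 to 4650) had their highest normalized count in LP+/+, Pgd and Taldo1 in replicate 1.

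All 4 alpha-class glutathione transferases had log2 fold changes below 0 in both other genotypes compared with LP+/+, with medians of -0.56 in LP245/+ and -0.57 in LPfl/+. Within the series this held for LP245/+ but not for LPfl/+. The log2 ratios to LP+/+ replicate 1 in LPfl/+ were 1.15 for Gsta1, 0.88 for Gsta2 and 0.35 for Gsta4, and -0.06 for Gsta3. In LP245/+, the ratios to LP+/+ replicates 2 and 3 were -3.81 for Gsta1, -1.33 for Gsta2, -0.48 for Gsta4 and -0.18 for Gsta3. With the series as a covariate, where LP+/+ replicate 1 is again the only control liver for LPfl/+, Gsta2 was at 0.88 in LPfl/+ compared with LP+/+. Gsta3, the abundant alpha transferase, had 44500, 59400 and 58900 normalized counts in LP+/+ livers, 44300 and 40900 in LPfl/+ livers, and 43200, 49100 and 64400 in LP245/+ livers, so that LP245/+ alone spanned the LP+/+ range. Gsta2 had 151, 708 and 599 in LP+/+ livers, 370 and 184 in LPfl/+ livers, and 252, 292 and 235 in LP245/+ livers. LP+/+ held both the lowest and the highest liver of Gsta2, and its 95% interval ran from -1.93 to 0.15 in LP245/+ and from -1.98 to 0.37 in LPfl/+. Gsta4, which acts on lipid aldehydes such as 4-hydroxynonenal, had 1250, 2290 and 2480 in LP+/+ livers, 1740 and 1450 in LPfl/+ livers, and 1790, 1750 and 1600 in LP245/+ livers, with the same arrangement. Gsta1 was near the limit of detection, with 4, 68 and 21 counts in LP+/+ livers, 11 and 6 in LPfl/+ livers, and 1, 7 and 1 in LP245/+ livers. Its fitted log2 fold change of -3.21 in LP245/+ (SE 1.01, adjusted p = 0.795) rests on those few counts and on a sequence that is mostly shared with Gm3776.

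The mu class is a cluster of neighbours on chromosome 3, and its largest log2 fold changes in LPfl/+ were those of Gstm1, Gstm2 and Gstm3. Gstm3 (from 107963696 to 107969283, minus strand) had 463, 634 and 551 normalized counts in LP+/+ livers, 319 and 279 in LPfl/+ livers, and 277, 412 and 340 in LP245/+ livers. All 5 livers of the other genotypes were below all 3 LP+/+ livers. The log2 fold change of Gstm3 was -0.67 in LP245/+ (SE 0.16, adjusted p = 0.795) and -0.87 in LPfl/+ (SE 0.19, adjusted p = 0.697) compared with LP+/+, which were the smallest p-values of the 44 genes in both. Within the series the log2 ratios were -0.79 and -0.63, in the same direction in both. DESeq2 gave Gstm3 an adjusted p of 0.0476 in LPfl/+ with a log2 fold change of -0.87, short of the fold cutoff, and edgeR without the filter on low counts gave 0.0474.

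Gstm2 had 901, 1820 and 1860 normalized counts in LP+/+ livers, 767 and 909 in LPfl/+ livers, and 830, 1050 and 1200 in LP245/+ livers. Again LP+/+ replicate 1 lay among the livers of the other genotypes. Gstm2 had log2 fold changes of -0.56 in LP245/+ (SE 0.25, adjusted p = 0.831) and -0.86 in LPfl/+ (SE 0.28, adjusted p = 0.697), with ratios within the series of -0.84 and -0.11. Gstm1, the most abundant mu gene, had 13900, 22500 and 21600 in LP+/+ livers, 13700 and 11100 in LPfl/+ livers, and 14200, 18300 and 17100 in LP245/+ livers. Both LPfl/+ livers were below every other liver, with a log2 fold change of -0.63 compared with LP+/+ (SE 0.22, adjusted p = 0.697) and a ratio of -0.17 within the series. Gstm6 had 1800, 1760 and 1890 in LP+/+ livers, 1480 and 1410 in LPfl/+ livers, and 1490, 1530 and 2070 in LP245/+ livers. The LPfl/+ difference of Gstm6, -0.32 (SE 0.14, adjusted p = 0.721), was equally -0.32 within the series.

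Gstm4, in the same cluster, was the only one of the 44 genes with all LP245/+ livers above all livers of both other genotypes. It had 585, 642 and 585 normalized counts in LP+/+ livers, 567 and 552 in LPfl/+ livers, and 659, 677 and 644 in LP245/+ livers. The fitted log2 fold change of Gstm4 was 0.24 in LP245/+ compared with LPfl/+ (SE 0.10, adjusted p = 0.542) and 0.14 compared with LP+/+, with an interval from -0.05 to 0.33 and a ratio of 0.11 within the series. Gstm5 (147 to 222 normalized counts) and Gstm7 (1060 to 1390) had 0 comparisons with an unadjusted p below 0.05 by edgeR.

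The pi class varied more inside LP+/+ than between the genotype means. Gstp1, the pi transferase that in mouse liver is higher in males than in females, had 27300, 8030 and 8090 normalized counts in LP+/+ livers, 19900 and 20900 in LPfl/+ livers, and 13200, 11700 and 14200 in LP245/+ livers. LP+/+ replicate 1 was 3.39 times the mean of the other LP+/+ livers, and was the highest of the 8, while the other two were the lowest. Livers of LPfl/+ and of LP245/+ each kept within a narrow range (SD 736 and 1280). Estimates for Gstp1 were 0.50 in LPfl/+ (interval from -0.51 to 1.51) and -0.14 in LP245/+ (interval from -1.05 to 0.77) compared with LP+/+. Within the first series LP245/+ was higher by a log2 ratio of 0.69, and within the second LPfl/+ was lower by -0.42. Gstp2, listed at 52.2, 9.6 and 3.76 normalized counts in LP+/+ livers, 13.2 and 19.2 in LPfl/+ livers, and 8.27, 18.2 and 12.2 in LP245/+ livers, was likewise highest in LP+/+ replicate 1, and 50% of its stretches are shared with other genes, mostly Gstp1.

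Among the theta, kappa and omega classes, Gstt3 had 467, 837 and 781 normalized counts in LP+/+ livers, 468 and 272 in LPfl/+ livers, and 552, 616 and 490 in LP245/+ livers. Gstt3 had log2 fold changes of -0.90 in LPfl/+ compared with LP+/+ (SE 0.28, adjusted p = 0.697) and 0.58 in LP245/+ compared with LPfl/+ (SE 0.28, adjusted p = 0.598), and LPfl/+ replicate 1 was level with LP+/+ replicate 1. Within the series the ratio of Gstt3 was -0.34 in LPfl/+ and -0.55 in LP245/+. Gstk1, the transferase of mitochondria and peroxisomes, had 2950, 4030 and 4140 in LP+/+ livers, 2850 and 2830 in LPfl/+ livers, and 2790, 3120 and 3360 in LP245/+ livers. The LPfl/+ difference of Gstk1, -0.38 (SE 0.16, adjusted p = 0.718), was -0.06 within the series. Gstt1 (5740 to 7840 normalized counts) and Gsto1 (1550 to 2120) were highest in LP+/+ replicate 3, and Gstt2 (727 to 1580) was lowest in LP+/+ replicate 1.

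The microsomal transferases and the peroxide and superoxide enzymes had 0 members with an unadjusted p below 0.05 by edgeR in the 3 comparisons. Mean normalized counts of Mgst1 were 65600 ± 3360 (SD) in LP+/+ livers, 59800 ± 1240 in LPfl/+ livers, and 66800 ± 10600 in LP245/+ livers. Mgst3 had 206, 617 and 503 in LP+/+ livers, 382 and 267 in LPfl/+ livers, and 407, 567 and 474 in LP245/+ livers, another gene whose lowest and highest livers were both LP+/+. The log2 fold change of Mgst3 in LPfl/+ was -0.44 over all livers but the ratio was 0.66 within the series, and in LP245/+ these were 0.14 and -0.21. The 9 peroxide and superoxide enzymes had log2 fold changes between -0.16 and 0.13. Cat, with means of 103000 ± 6020 in LP+/+ livers, 96300 ± 8860 in LPfl/+ livers, and 99300 ± 8550 in LP245/+, had an interval from -0.31 to 0.23 in LP245/+ compared with LP+/+. Gpx1 spread from 48600 in LP+/+ replicate 1 to 74100 in LP+/+ replicate 3, with all LPfl/+ and LP245/+ livers between. Over the 8 livers the highest normalized count was 1.21 times the lowest for Sod2, the mitochondrial superoxide dismutase, 1.30 for Sod1, 1.31 for Gpx4, the lipid peroxide reductase, 1.23 for Prdx6, 1.34 for Txn1, 1.55 for Prdx1 and 1.71 for Gpx3.

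LP245/+ and LPfl/+ livers, which differ in whether the second Trp53 allele is mutant or missing, share no library series. The genes with an unadjusted p below 0.05 were Gstm4, Gsr and Nqo1, each higher in LP245/+, with adjusted p-values from edgeR of 0.542 or more. Of the 9 genes with all LP245/+ livers above both LPfl/+ livers, Gstm1, Gstm4, Gstm6, Gstt3 and Mgst3 are transferases, Gclm, Gss and Gsr belong to glutathione synthesis and recycling, and the last is Nqo1. The 4 that lay below were Gclc, Gstp1, Gstm5 and G6pdx. Gclc and Gclm, whose products form 1 enzyme, were thus on opposite sides. The count of 3 became 6 without LP+/+ replicate 1, 0 without LPfl/+ replicate 2 or LP245/+ replicate 2, and 1 without LP245/+ replicate 3. With the series as a covariate it was 12, with 10 of them lower, where 2.7% of all genes were lower and 2.58% higher. In that fit the median over the 44 genes was -0.18 in place of 0.07. The covariate turned the sign of 27 of the 44 genes, among them Gstp1 (from -0.64 to 1.119), Mgst3 (from 0.58 to -0.87), Gstm2 (from 0.30 to -0.73) and Nqo1 (from 0.73 to -0.18). That fit is linked between the series by the LP+/+ livers alone, of which the second series holds only replicate 1.

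**Figure D5:**
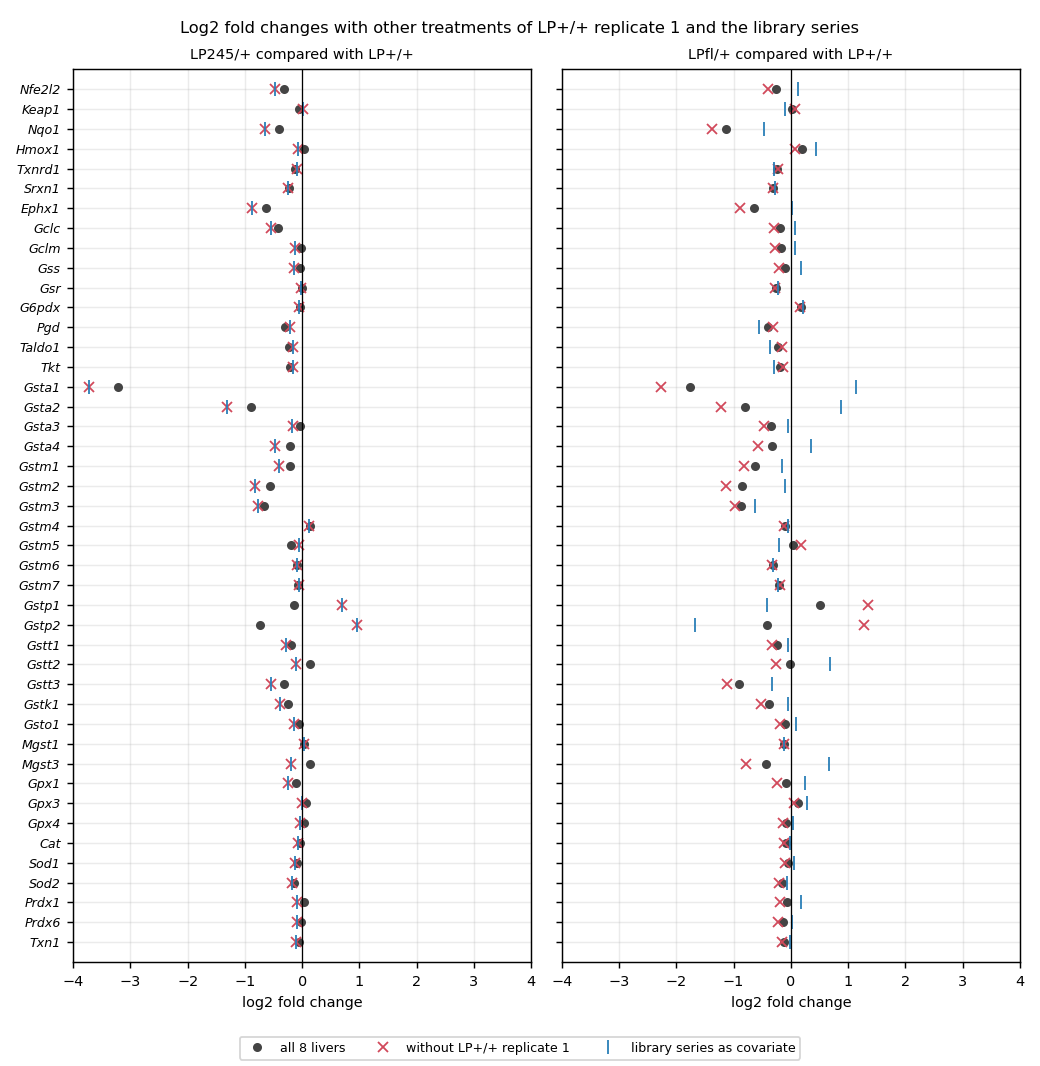
Log2 fold changes of the 44 genes compared with LP+/+ from all 8 livers (circles), without LP+/+ replicate 1 (crosses) and with the library series as a covariate (ticks). Crosses and ticks fall together for LP245/+ and lie apart for LPfl/+, most of all for Gsta1, Gsta2, Gstp1 and Gstp2.

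Other genes of the same pathways were read from lists. Of 20 further NRF2 targets tested, 18 were below 0 in LP245/+ and 16 in LPfl/+, compared with LP+/+, with medians of -0.17 and -0.20. Of all 16496 genes tested, 8141 and 8283 were below 0. Summed over the further NRF2 targets, CPM (counts scaled to library depth) was 2410, 3330 and 3260 in LP+/+ livers. It was 2410 and 2240 in LPfl/+ livers, and 2690, 2970 and 2630 in LP245/+ livers. Within the series, LP+/+ replicate 1 was level with LPfl/+ replicate 1, while LP+/+ replicates 2 and 3 were above all LP245/+ livers. The part of the library series in these counts was not tested. Ugdh, which makes UDP-glucuronate for conjugation, had 2760, 3850 and 3660 normalized counts in LP+/+ livers, 2290 and 2170 in LPfl/+ livers, and 2000, 2370 and 2490 in LP245/+ livers, so that all 5 livers of the other genotypes were below all LP+/+ livers. Its log2 fold change was -0.57 in LP245/+ (SE 0.14, adjusted p = 0.795) and -0.61 in LPfl/+ (SE 0.16, adjusted p = 0.697). Me1, the cytosolic malic enzyme, had 3680, 3670 and 3030 in LP+/+ livers, 2190 and 2100 in LPfl/+ livers, and 2810, 3080 and 3060 in LP245/+ livers. In LPfl/+ it was lower by -0.68 (SE 0.12, adjusted p = 0.697), and in LP245/+ higher than in LPfl/+ by 0.48 (SE 0.12, adjusted p = 0.362). Cyp2a5 was lower in LPfl/+ by -1.16 (SE 0.29, adjusted p = 0.697), and in LP245/+ higher than in LPfl/+ by 0.77 (SE 0.29, adjusted p = 0.524). It had 5800, 12600 and 10500 in LP+/+ livers, and 5080 and 3500 in LPfl/+ livers. Of the LP+/+ livers, replicate 1 was thus nearest to LPfl/+ for Cyp2a5. Entpd5 was the remaining target with an unadjusted p below 0.05 in LPfl/+.

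Of 10 partners and negative regulators of NRF2, Bach1, a repressor that competes with NRF2 for its sites, and Maff, a small MAF partner, had an unadjusted p below 0.05 in LP245/+ compared with LP+/+. Bach1 had 1330, 1200 and 1070 normalized counts in LP+/+ livers, 1150 and 1210 in LPfl/+ livers, and 1500, 1300 and 1530 in LP245/+ livers, a log2 fold change of 0.28 (SE 0.11, adjusted p = 0.796). Compared with LPfl/+ it was 0.29 (SE 0.12, adjusted p = 0.551). Maff had 12.6, 47.1 and 30.1 in LP+/+ livers, 33.4 and 41.4 in LPfl/+ livers, and 88.9, 34.4 and 93.7 in LP245/+ livers, a log2 fold change of 1.28 (SE 0.47, adjusted p = 0.795). Of 18 further genes of glutathione metabolism, 12 were below 0 in LP245/+ and 14 in LPfl/+, and only Ggct had an unadjusted p below 0.05 (-0.33 in LP245/+, SE 0.13, adjusted p = 0.808). Of 18 further peroxiredoxins, thioredoxins and peroxidases, 9 and 10 were below 0, and Sod3, the extracellular superoxide dismutase, had log2 fold changes of -0.38 in LP245/+ (SE 0.14, adjusted p = 0.795) and -0.50 in LPfl/+ (SE 0.16, adjusted p = 0.697). In the same list, Txnip was higher in LP245/+ than in LPfl/+ by 0.49 (SE 0.20, adjusted p = 0.544).

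Among 9 further NADPH-producing enzymes, Nnt, the mitochondrial transhydrogenase, had the smallest p. It had 1290, 2060 and 2090 normalized counts in LP+/+ livers, 1480 and 1520 in LPfl/+ livers, and 2770, 3610 and 3320 in LP245/+ livers. All LP245/+ livers were above all others, with log2 fold changes of 0.85 compared with LP+/+ (SE 0.18, adjusted p = 0.795) and 1.11 compared with LPfl/+ (SE 0.21, adjusted p = 0.362). Some C57BL/6 substrains carry a deletion in Nnt, and the share of each substrain in these mice was not tested.

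Markers of cell types and states were read beside these results. Summed over 7 markers, hepatocyte CPM was from 104000 to 147000 in LP+/+ livers, 112000 and 103000 in LPfl/+ livers, and from 104000 to 122000 in LP245/+ livers, with LP+/+ replicates 2 and 3 highest. Of 9 pericentral markers, the zone of the lobule where many of these transferases are most expressed, 7 were below 0 in LPfl/+ compared with LP+/+ and 4 of them had an unadjusted p below 0.05 (Glul, Oat, Slc1a2 and Lect2), and their summed CPM was 7320, 9670 and 10900 in LP+/+ livers, 7240 and 7770 in LPfl/+ livers, and 8540, 10600 and 11000 in LP245/+ livers. Of 7 periportal markers, 5 were below 0 in LPfl/+ livers, and 7 in LP245/+, with 1 at an unadjusted p below 0.05 in each. Erythroid markers were below 0 for 4 of 4 genes in both other genotypes, with a summed CPM from 377 to 529 in LP+/+ livers, 240 and 333 in LPfl/+ livers, and from 199 to 469 in LP245/+ livers. Of 11 circadian clock genes, 6 were higher and 2 lower in LP245/+ than in LP+/+ at an unadjusted p below 0.05, led by Per2 (0.54), Arntl (-1.05) and Dbp (2.09), where 0 were in LPfl/+ by edgeR. Cholangiocyte (23.4 to 40.4 CPM), lymphocyte (1.72 to 3.18 CPM) and neutrophil markers (1.39 to 2.82 CPM) summed to little in every liver. The part of zonation, blood and time of collection in the differences of the 44 genes was not tested.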

How the data were processed

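Total RNA of 8 livers was sequenced by the authors as stranded TruSeq libraries with paired 76-base reads, aligned to GRCm38 with STAR and counted per gene by STAR on GENCODE. The deposited values are raw counts. The GENCODE release and the strand counted are not given in the sources used here. Symbols, positions and exon lengths came from GENCODE M21, and 259 identifiers had no symbol. Differences were tested with edgeR 4.0.16 (R 4.3.3, quasi-likelihood F test, TMM, filterByExpr, all 8 livers in 1 fit), adjusted by Benjamini-Hochberg over 16496 genes. Normalized read counts are counts divided by size factors of DESeq2 1.42.0. FPKM uses the TMM-scaled library and the length of merged exons. Heat map levels are log2 with a pseudocount of 1. The labels do not say whether replicates beyond separate samples differ in litter, and p-values measure the spread between these livers. Genes named with statistics are Nfe2l2, Keap1, Nqo1, Hmox1 and Gclc, members with an unadjusted p below 0.05, and up to 3 such genes per pathway list. Alternatives were DESeq2, other size factors, no or a stricter filter, fewer groups, the replicate block, the library series, and each liver left out. The members and lists were chosen with earlier results of these data known. The method was tested on simulated counts that had the same spread for all genes, no library series and no liver that stood apart. That simulation therefore does not cover these features of the data. Figures were drawn with Python 3.11.15 and matplotlib 3.10.9, and promoters aligned with Biopython 1.88.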

Additional observations from a re-analysis of the deposited data

How the results depend on the processing

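Over all alternatives, 0 of the 44 genes passed the cutoff in LP245/+ against either other genotype, and in LPfl/+ against LP+/+ between 0 and 3 did when 1 liver was left out, the 3 without LP+/+ replicate 1. Of all 16311 genes tested in that last fit, 59 passed it in the same comparison, against 0 with all livers. With each liver left out in turn, genes with an unadjusted p below 0.05 numbered between 2 and 14 for LP245/+ against LP+/+, between 4 and 17 for LPfl/+ against LP+/+, and between 0 and 6 for LP245/+ against LPfl/+, beside 6, 11 and 3 with all livers. The shares of all genes ran from 2.21% to 4.24% higher and from 1.66% to 3.51% lower in the first comparison. In the second they ran from 2.65% to 6.88% higher and from 1.65% to 4.79% lower. In the third they ran from 2.93% to 6.46% higher and from 3.23% to 5.51% lower. A fit of only the genotypes compared gave 3 for LP245/+ against LP+/+ and 5 for LP245/+ against LPfl/+, where no filter on low counts also gave 5. With the library series as a covariate, 14 genes for LP245/+ against LP+/+, 8 for LPfl/+ against LP+/+ (4 lower and 4 higher, in place of 11 and 0) and 12 for LP245/+ against LPfl/+ had such a p, and the median over the 44 genes was -0.0496 for LPfl/+ against LP+/+ and turned to -0.1839 for LP245/+ against LPfl/+. Of all genes, 4.13% were higher and 2.52% lower with such a p for LP245/+ against LP+/+. For LP245/+ against LPfl/+ these shares were 2.58% and 2.7%. For LP245/+ against LP+/+ this fit compares with LP+/+ replicates 2 and 3 only, as leaving out LP+/+ replicate 1 does. For LPfl/+ against LP+/+ its only control liver is LP+/+ replicate 1. That covariate turned the sign of 9, 19 and 27 of the 44 genes in the 3 comparisons. Among the genes turned, the widest shifts in the first were those of Gstp2 (from -0.74 to 0.95) and Gstp1 (from -0.14 to 0.70). In the second they were Gsta1 (from -1.76 to 1.14), Gsta2 (from -0.80 to 0.88), Mgst3 (from -0.44 to 0.66) and Gstp1 (from 0.50 to -0.42). In the third they were Gstp2 (from -0.32 to 2.63), Gstp1 (from -0.64 to 1.119), Mgst3 (from 0.58 to -0.87) and Gstm2 (from 0.30 to -0.73). Among the genes named with statistics, the covariate turned Keap1 (to 0.0087) and Hmox1 (to -0.0759) for LP245/+ against LP+/+. For LPfl/+ against LP+/+ it turned Nfe2l2 (to 0.1262), Keap1 (to -0.0974), Gclc (to 0.0769) and Ephx1 (to 0.0239). For LP245/+ against LPfl/+ it turned Keap1 (to 0.1061) and Nqo1 (to -0.178). With the replicate number as a block, 7 genes for LPfl/+ against LP+/+ and 1 for LP245/+ against LPfl/+ had an unadjusted p below 0.05, and Keap1 turned to -0.0424 for LPfl/+ against LP+/+. Livers with the same number had correlations of their deviations from the genotype mean between -0.0822 and 0.0339. With 2 or 3 livers in a genotype, these values cannot tell whether such livers share more than a number. Leaving out 1 liver turned the sign of between 0 and 9 of the 44 genes for LP245/+ against LP+/+, between 0 and 6 for LPfl/+ against LP+/+ and between 0 and 10 for LP245/+ against LPfl/+. Without LP+/+ replicate 1, Gstp1 turned to 0.70 and Gstp2 to 0.95 for LP245/+ against LP+/+, and Gstp2 to 1.27 for LPfl/+ against LP+/+. For LP245/+ against LP+/+, Keap1 ran from -0.1434 to 0.0092 and Hmox1 from -0.0754 to 0.1408, and for LPfl/+ against LP+/+, Keap1 ran from -0.0661 to 0.0798. For LP245/+ against LPfl/+, Nfe2l2 ran from -0.133 to 0.0131 and Keap1 from -0.1612 to 0.0027. DESeq2, other size factors and other filters turned 0 signs. The cause of these turns was not tested.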

Other observations

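The livers in which Gstp1, Gsta2, Gstm2 and Ephx1 stood apart also differed in genes of sex-biased and xenobiotic-inducible metabolism. These genes were chosen after their values were seen. All 8 livers had between 2940 and 3840 normalized counts of Ddx3y, a gene of the Y chromosome, and between 0 and 25.2 of Xist, as male livers do. Cyp2b9, which in mouse liver is higher in females, had 71.5, 8900 and 8330 normalized counts in LP+/+ livers, 1050 and 229 in LPfl/+ livers, and 1810, 3640 and 1130 in LP245/+ livers. Cyp2b13 and Cyp2a4, other genes known to be higher in females, had 0.966 and 0 in LP+/+ replicate 1 but 279 and 148 in replicate 2 and 255 and 72.5 in replicate 3. Cyp2b13 had 4.05 and 0 in LPfl/+ livers, and 57.9, 111 and 19.3 in LP245/+ livers. Cyp2a4 had 22.3 and 7.07 in LPfl/+ livers, and 35.1, 62.6 and 50.9 in LP245/+ livers. Elovl3, Hsd3b5, Cyp4a12a and Cyp7b1, known to be higher in males, went the other way. Elovl3 had 17100, 4250 and 6730 in LP+/+ livers, 7600 and 8350 in LPfl/+ livers, and 3670, 6530 and 6760 in LP245/+ livers, and Hsd3b5 had 9870, 1300 and 2830, then 6770 and 8640, then 5750, 4070 and 8430.

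Cyp4a12a (2120, 626 and 873 in LP+/+) and Cyp7b1 (10100, 2720 and 3520) had the same order within LP+/+. Targets of the xenobiotic receptors CAR and PXR were low in LP+/+ replicate 1 as well. Cyp3a11 had 6830, 36800 and 51400 in LP+/+ livers, 16200 and 25500 in LPfl/+ livers, and 25800, 42400 and 27600 in LP245/+ livers. Cyp2c29 had 12700, 28500 and 31800 in LP+/+ livers, 20000 and 15300 in LPfl/+ livers, and 18500, 34300 and 26700 in LP245/+ livers. Cyp2b10 had 0, 21.1 and 41.4, then 0 and 3.03, then 12.4, 31.3 and 12.2. For Cyp2b9, Cyp2b13, Cyp2a4, Cyp2b10 and Cyp3a11, all livers of the second series were below all livers of the first. For Elovl3 and Cyp4a12a they were above them, and for Cyp2c29, Hsd3b5 and Cyp7b1 the series overlapped. For Gstp1, Cyp2b9, Cyp2b13, Elovl3, Hsd3b5, Cyp4a12a and Cyp7b1, LP+/+ replicates 1 and 2 were at opposite ends of the range of their group, and LP+/+ replicate 1 was on the side where male livers usually lie. The share of these differences in those of the 44 genes was not tested, and LP+/+ replicates 1 and 2 carry the same labelled genotype.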
